A study of Mus musculus with 24 samples.

Results

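Of the 24091 genes in the table of read counts, 8 were taken here by their symbols as the MHC class II genes: Cd74, H2-Aa, H2-Ab1, H2-Eb1, H2-DMa, H2-DMb1, H2-Oa and Ciita. All 8 were in the table, and all 8 were among the 13520 genes that passed the filter on low counts. Bulk RNA-seq had been made from bone marrow LSKs (Lin-Sca-1+c-Kit+ cells, the sorted fraction that holds stem cells and early progenitors) of 24 mice of the B6 background, 6 in each of 4 groups, of which 3 were female. WT mice carried intact miR-142 and no BCR-ABL, and miR-142 KO mice had lost both copies of miR-142 and carried no BCR-ABL. CP CML mice carried BCR-ABL with intact miR-142 and model chronic phase chronic myeloid leukemia, and BC CML mice carried BCR-ABL without miR-142 and model blast crisis. In both CML groups BCR-ABL was under the SCL promoter in a tet-off system (SCLtTA/BCR-ABL), switched on by withdrawing tetracycline 2 weeks before the LSKs were collected, so that it is driven only where that promoter is active. The ages of the mice are not given in the labels. Every mouse gave 1 library, and each is named below by its group and replicate number (1 to 3 are females, 4 to 6 are males).

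MHC class II molecules present peptides from endocytosed proteins to CD4 T cells. An alpha and a beta chain (here H2-Aa with H2-Ab1, the I-A molecule, and H2-Eb1, the beta chain of I-E) pair in the endoplasmic reticulum around the invariant chain, encoded by Cd74, which fills the groove and sends the complex to endosomes. There the invariant chain is cut by cathepsins, and H2-DM (H2-DMa with H2-DMb1 or H2-DMb2) exchanges its last fragment for a peptide, while H2-O (H2-Oa with H2-Ob) restrains H2-DM. B6 mice carry a defective I-E alpha gene, listed in the table as H2-Ea-ps, so the I-E molecule is not formed on their cells. Transcription of the class II genes depends on Ciita, a coactivator that does not itself bind DNA and is held at the X and Y boxes of their promoters by RFX, CREB and NF-Y proteins. Class II is best known in B cells, dendritic cells and macrophages, and Cd74 also serves at the cell surface as a receptor of the cytokine MIF.

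All of the genes except Cd74 and Ciita lie in the MHC region. In the table (mm10) H2-Oa is at chr17:34092379-34095234, H2-DMa at chr17:34122832-34139101, H2-DMb1 at chr17:34145416-34160229, H2-Ab1 at chr17:34263227-34269418 and H2-Eb1 at chr17:34264832-34316674, all on the plus strand, with H2-Aa on the minus strand at chr17:34282751-34287771. Ciita is on the plus strand at chr16:10480072-10527640. The listed span of H2-Eb1 runs over those of H2-Ab1 and H2-Aa, that of H2-Oa over an antisense gene, BC051537, and H2-DMb1 has the same listed span as its near-identical neighbour H2-DMb2. The listed span of Notch4 (plus strand) also overlaps those of H2-Ab1, H2-Aa and H2-Eb1, and those of H2-Ob and H2-Eb2. Whether counting used strand is not given in the sources used here, so reads where these genes overlap, and the split between H2-DMb1 and H2-DMb2, are uncertain.

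The promoter stretches that hold the letters of the X and Y boxes are shown because these are the sites through which Ciita acts. RefSeq promoter windows (GRCm38.p6, 250 bases before to 50 after each start) were on hand for 5 of the 8 genes, namely H2-Aa, H2-Eb1, H2-DMa, H2-DMb1 and H2-Oa. The letters searched on both strands were AGNAAC for the X box core, ATTGG for the Y box, and an X core followed on the same strand by a Y box with 25 to 45 bases between their first bases. The 2 motifs of a pair do not overlap. On the gene's own strand the pair was found in H2-Eb1, H2-DMb1 and H2-Oa and also in H2-Ob and H2-Eb2, against 0.554% of all 32851 windows. H2-DMb2, which was searched as well, held a Y box without the pair. On either strand it was found in 1.14% of windows, the X core letters (with or without a Y box) in 48.1% and the Y box letters (with or without an X core) in 37.4%. In the lines below, capitals mark the X core and then the Y box. In H2-Aa the Y box was found without a match to the X core letters.
H2-Eb1 (chr17:34305769-34305818, plus strand): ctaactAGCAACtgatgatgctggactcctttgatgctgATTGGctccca
H2-DMb1 (chr17:34153090-34153140, plus strand): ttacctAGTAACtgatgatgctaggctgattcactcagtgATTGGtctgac
H2-Oa (chr17:34092296-34092346, plus strand): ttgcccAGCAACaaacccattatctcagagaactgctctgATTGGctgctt
H2-Ob (chr17:34238811-34238858, plus strand): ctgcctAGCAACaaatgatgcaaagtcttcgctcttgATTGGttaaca
H2-Aa (chr17:34287861-34287911, minus strand): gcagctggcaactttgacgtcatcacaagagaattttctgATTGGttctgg

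The first bases of the X core and the Y box lay 33 bases apart in H2-Eb1, 34 in H2-DMb1, 34 in H2-Oa and 31 in H2-Ob, and the X core began 92, 95, 77 and 88 bases before the start of the transcript. Of the 2 windows of H2-DMa, 1 held a Y box and neither held the pair. The genes with the pair included H2-DMb1, which passed the test in none of the 8 comparisons below, as well as H2-Eb1 and H2-Oa, which passed it in several.

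The mature strands of the deleted microRNA are shown because the design turns on its loss, with the seed (bases 2 to 8) in capitals. They lie at chr11:87756867-87756887 and chr11:87756903-87756925 (plus strand, GRCm38.p6, RefSeq).
mmu-miR-142a-5p: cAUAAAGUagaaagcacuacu
mmu-miR-142a-3p: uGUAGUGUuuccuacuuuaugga
Among the 3' UTRs of the 8 genes (GENCODE M21, GRCm38), letters complementary to the seed of the 3p strand occurred in Ciita alone, at 1 place, and those complementary to the 5p seed did not occur. Of 12603 tested genes with a 3' UTR, 6.93% had a match to the 3p seed and 15.8% to the 5p seed. The Ciita match lies in the 3' UTR at chr16:10527944-10527967 (plus strand), past the end that the table lists for the gene, and is given with the match in capitals.
Ciita: cttggttcccaggaccACACTACg

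The 24 libraries held 16267965 to 24687077 counts on genes, and levels are given as CPM (counts scaled by the library's total). Mir142 checked the labels: it had 94 to 127 counts in WT and 68 to 153 in CP CML libraries and 0 in all 12 libraries labelled as lacking it. The gate markers Kit (at least 636 CPM) and Ly6a, the Sca-1 gene (at least 32.1 CPM), were present in every library. Library WT 3 stood apart in marker genes of other cells. Its summed level of 12 macrophage markers was 1511 CPM, against 98.5 to 308 CPM in the other WT libraries, and its conventional dendritic cell markers summed to 284 CPM, against 153 to 186. Library miR-142 KO 3 stood apart in the other direction, with the lowest sums of its group for B cell (25.8 CPM), macrophage (48.8 CPM) and plasmacytoid dendritic cell markers (455 CPM). Results that rest on these libraries are given with and without them.

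**Figure D1:**
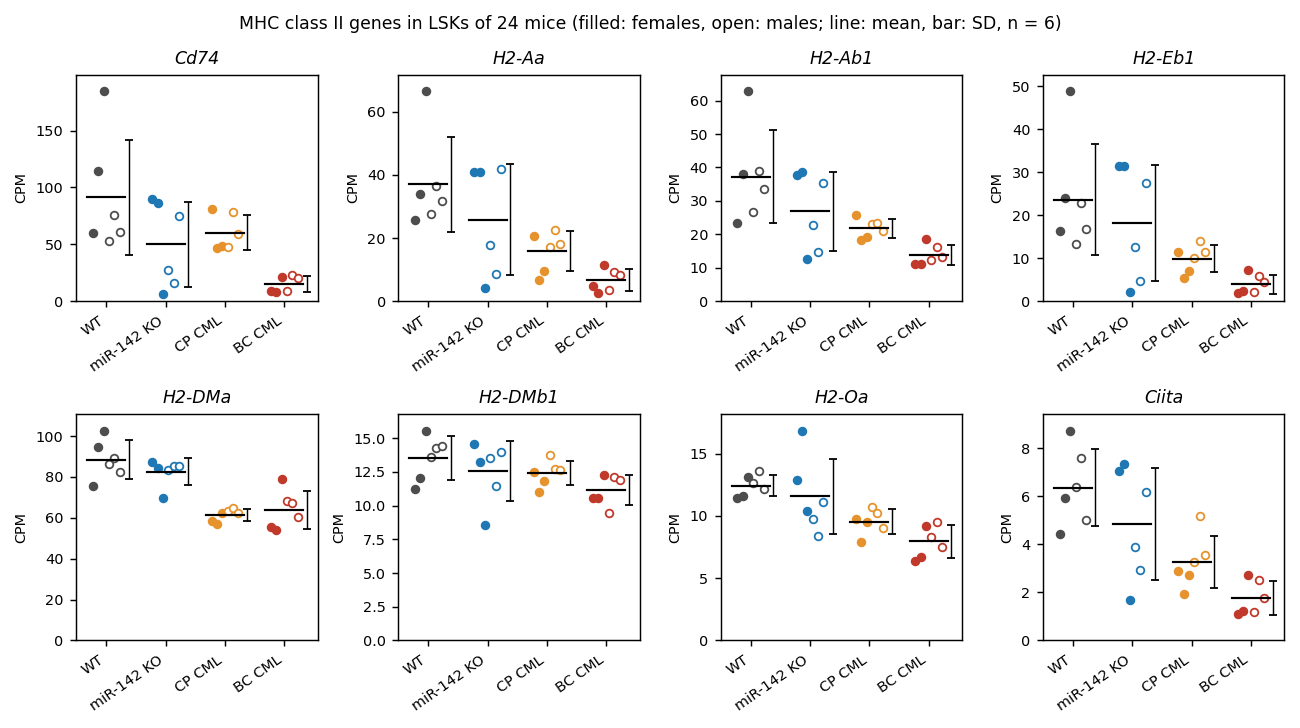
CPM (y axis, from 0) of each class II gene in the 6 mice of each group (x axis), with females as filled and males as open points, the mean as a line and the SD as a bar. The miR-142 KO mice are spread widely for Cd74, H2-Aa, H2-Ab1, H2-Eb1 and Ciita, and Cd74 in all 6 BC CML mice lies below its lowest CP CML value of 46.9 CPM.

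Cd74 (chr18:60803849-60812652, plus strand), the invariant chain, had its lowest group median in BC CML LSKs. WT mice had 52.9 to 185 CPM (median 68.4), miR-142 KO mice 6.63 to 89.5 (median 51.1), CP CML mice 46.9 to 80.9 (median 53.8) and BC CML mice 7.75 to 23.3 (median 14.7). The BC CML mice were all below every CP CML and every WT mouse, and 1 miR-142 KO mouse, replicate 3, was lower than all of them.

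H2-Aa, the alpha chain of I-A, had group medians in the same descending order as most of the family. WT mice had 25.6 to 66.5 CPM (median 32.8), miR-142 KO mice 4.25 to 41.97 (median 29.3), CP CML mice 6.54 to 22.6 (median 17.5) and BC CML mice 2.69 to 11.4 (median 6.51). Every CP CML mouse was below every WT mouse, and 3 of the 6 BC CML mice were below every CP CML mouse.

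H2-Ab1, the beta chain that pairs with H2-Aa, was spread less. WT mice had 23.4 to 62.8 CPM (median 35.9), miR-142 KO mice 12.6 to 38.6 (median 29.1), CP CML mice 18.4 to 25.8 (median 21.9) and BC CML mice 10.98 to 18.5 (median 12.8). Of the 6 BC CML mice, 5 were below the lowest CP CML mouse, and of the 6 CP CML mice, 5 were below the lowest WT mouse.

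H2-Eb1 was transcribed although the gene of its partner chain is defective in this strain, and H2-Ea-ps itself had at most 0.046004 CPM in any library. WT mice had 13.3 to 48.8 CPM of H2-Eb1 (median 19.7), miR-142 KO mice 2.12 to 31.5 (median 19.95), CP CML mice 5.27 to 13.96 (median 10.7) and BC CML mice 1.96 to 7.18 (median 3.33). Both CML groups overlapped each other, with 4 BC CML mice below all CP CML mice, and the BC CML range lay wholly below the WT range.

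Ciita had the fewest reads of the 8 genes. WT mice had 4.43 to 8.73 CPM (median 6.16), miR-142 KO mice 1.6998 to 7.36 (median 5.04), CP CML mice 1.92 to 5.16 (median 3.08) and BC CML mice 1.11 to 2.72 (median 1.503). In reads this was 25 to 60 counts a library in BC CML and 102 to 208 in WT. The BC CML range lay wholly under the WT range, and 4 of the 6 BC CML mice were below every CP CML mouse.

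The peptide loading genes were flatter. For H2-DMa, WT mice had 75.5 to 103 CPM (median 87.7), miR-142 KO mice 69.8 to 87.5 (median 84.9), CP CML mice 56.9 to 64.96 (median 62.4) and BC CML mice 54.02 to 78.9 (median 63.8). Here the step lay between the mice without and with BCR-ABL, and all CP CML mice were below all WT and all miR-142 KO mice.

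For H2-DMb1, its partner, WT mice had 11.2 to 15.6 CPM (median 13.96), miR-142 KO mice 8.54 to 14.6 (median 13.4), CP CML mice 11.04 to 13.7 (median 12.6) and BC CML mice 9.45 to 12.3 (median 11.2), and every pair of groups overlapped. For H2-Oa, the alpha chain of the H2-DM inhibitor, WT mice had 11.4 to 13.6 CPM (median 12.4), miR-142 KO mice 8.38 to 16.8 (median 10.7), CP CML mice 7.93 to 10.7 (median 9.65) and BC CML mice 6.36 to 9.53 (median 7.91). Both CML groups were wholly below WT for H2-Oa.

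Levels can be compared between genes only per length, and on that scale (CPM per kb of the gene's listed length) the order of the genes changed with the group. In WT LSKs it ran Cd74 at 65.1 ± 36.1, H2-DMa at 53.5 ± 5.72, H2-Ab1 at 31.2 ± 11.7, H2-Aa at 27.4 ± 11.1, H2-Eb1 at 13.1 ± 7.18, H2-DMb1 at 10.2 ± 1.21, H2-Oa at 9.77 ± 0.678 and Ciita at 0.792 ± 0.1997 CPM per kb (SD, n = 6). In BC CML LSKs H2-DMa led at 38.8 ± 5.63, followed by H2-Ab1 at 11.5 ± 2.51 and Cd74 at 10.7 ± 5.14, and H2-Aa (4.94 ± 2.61) and H2-Eb1 (2.19 ± 1.22) lay under H2-DMb1 (8.37 ± 0.845) and H2-Oa (6.25 ± 1.02 CPM per kb, SD, n = 6). H2-DMa was above Cd74 per length in all 6 BC CML libraries, and in 3 of 6 miR-142 KO, 3 of 6 CP CML and 4 of 6 WT libraries. The lead of Cd74 in the WT means rested on WT 3, without which both averaged 51.8 CPM per kb, and by medians over the 6 WT libraries H2-DMa (53.1) came before Cd74 (48.6 CPM per kb).

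Ratios within a library do not depend on its depth. The ratio of Cd74 to H2-Ab1 in CPM per kb was 2.02 ± 0.452 for WT, 1.35 ± 0.634 for miR-142 KO, 2.33 ± 0.396 for CP CML and 0.895 ± 0.317 for BC CML (SD, n = 6), with the highest BC CML ratio (1.302) under the lowest CP CML ratio (1.75). That of H2-Aa to H2-Ab1, the chains of I-A, was 0.878 ± 0.072002 for WT, 0.743 ± 0.292 for miR-142 KO, 0.624 ± 0.206 for CP CML and 0.4096 ± 0.151 for BC CML. All 6 BC CML values of the latter ratio, at most 0.556, were below the lowest WT value of 0.7905.

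The group means descended from WT through miR-142 KO and CP CML to BC CML for 6 of the 8 genes. Among these 6, no pair of WT and miR-142 KO or of miR-142 KO and CP CML neighbours passed the test, and of the pairs of CP CML and BC CML, H2-Aa and Ciita passed it. For Cd74 the mean of CP CML (60.2 ± 15.6 CPM) came before that of miR-142 KO (50.1 ± 37.4 CPM, SD, n = 6), a step that did not pass the test, and the step to BC CML passed it. For H2-DMa the mean of BC CML (64.04 ± 9.305 CPM) came before that of CP CML (61.4 ± 3.09 CPM, SD, n = 6), a step that did not pass the test, and the step from miR-142 KO to BC CML passed it. By medians, miR-142 KO also came before WT for H2-Eb1.

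BC CML was compared with CP CML to ask what the loss of miR-142 does in LSKs that carry BCR-ABL. Of the 8 genes, 3 were lower in BC CML at an adjusted p under 0.05 (edgeR quasi-likelihood test, Benjamini-Hochberg adjustment over 13520 genes) and none was higher, beside 17.6% of all tested genes called lower and 20.4% called higher. Cd74 fell by 1.94 on the log2 scale (SE 0.478, adjusted p = 0.002566, edgeR). Ciita fell by 0.83 (SE 0.315, adjusted p = 0.04023) and H2-Aa by 1.18 (SE 0.463, adjusted p = 0.04785). H2-Eb1 (log2 fold change -1.26, adjusted p = 0.05345) and H2-Ab1 (-0.60, adjusted p = 0.06544) did not pass the threshold. Nor did the loading genes, with log2 fold changes of 0.12 for H2-DMa, -0.09 for H2-DMb1 and -0.20 for H2-Oa (adjusted p = 0.2147, 0.5243 and 0.2387 by edgeR).

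The median log2 fold change over the 8 genes was -0.72, beside 0.01 over all genes tested. In a bulk library, fewer cells of a class II positive type and less class II RNA in each cell cannot be told apart. Cd74 alone was lower with no overlap of the groups, beside 12.6% of tested genes. The call of Cd74 held with each mouse left out in turn (adjusted p from 0.0005154 to 0.007921, edgeR), whereas the count of class II genes called moved between 1 and 5. Over all genes, the calls in these fits moved between 4404 and 5608. With WT 3 and miR-142 KO 3 both left out, 5 genes were called lower, H2-Eb1 and H2-Ab1 being added. Among females alone none was called by edgeR (Cd74 -2.18, adjusted p = 0.08218, 3 mice a group), and among males alone 3 were (Cd74 -1.76, adjusted p = 0.01674).

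**Figure D2:**
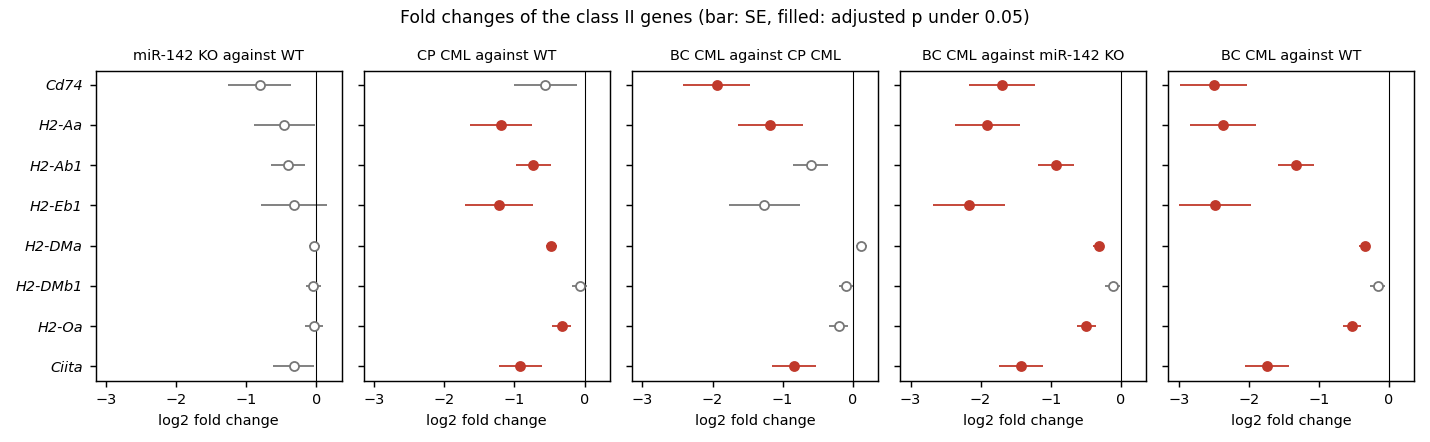
Log2 fold change (x axis) of each class II gene (y axis) in 5 comparisons, with the SE as a bar and filled points where the adjusted p was under 0.05. No gene is filled for miR-142 KO against WT, and 7 are filled for BC CML against WT, where Cd74 reaches -2.50.

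The 3 other class II genes tested were also lower in BC CML against CP CML. H2-Ob, the beta chain of H2-O, fell by 1.198 (adjusted p = 1.112e-05), with 66.3 ± 16.9 CPM for CP CML and 27.6 ± 7.17 CPM for BC CML (SD, n = 6). H2-Eb2, a beta chain gene at 0.222 ± 0.1198 CPM in BC CML LSKs, fell by 1.17 (adjusted p = 0.03691), and H2-DMb2 by 0.60 (adjusted p = 0.04361). H2-Ob was more abundant than H2-Oa per length in each group by means, at a ratio of 4.49 ± 0.375 for WT, 1.85 ± 0.695 for miR-142 KO, 3.01 ± 0.652 for CP CML and 1.5002 ± 0.182 for BC CML. The highest BC CML ratio, 1.74, was under the lowest CP CML ratio of 2.21, and the highest miR-142 KO ratio, 2.75, under the lowest WT ratio of 4.05.

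Among 13 tested transcription factor genes with a known part in class II transcription or in the cells that express it, 2 were lower in BC CML relative to CP CML and 1 was higher. Here and for the lists that follow, 17.6% of all tested genes were called lower and 20.4% higher. Irf4, a factor of B cells and dendritic cells, fell by 2.67 (adjusted p = 6.669e-05) and Prdm1, a repressor of Ciita in plasma cells, by 0.89 (adjusted p = 0.03639), and Spi1, which encodes PU.1, rose by 0.22 (adjusted p = 0.01298). None of the RFX, NF-Y and CREB genes passed the test, with log2 fold changes from -0.09 for Nfyb to 0.17 for Rfx5. Of 7 genes on the way from interferon gamma to Ciita, 1 rose, the receptor chain Ifngr2 (0.93, adjusted p = 5.353e-09), and Irf1 (0.03) did not pass the test.

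Among 11 genes of invariant chain processing and class II turnover, 4 rose and 2 fell. The genes with the smallest p were the cathepsins Ctsd (0.88) and Ctsl (0.56) and the ubiquitin ligase gene March8 (0.52), which rose, and Ctss, the cathepsin best known for the last cuts of the invariant chain, which fell by 1.02 (adjusted p = 0.001429). March1, encoding a ligase that removes class II from the surface, also fell (-1.85, adjusted p = 0.01743) and was named after its value was seen. Ctss had 52.2 to 84.03 CPM in CP CML mice and 22.1 to 49.3 CPM in BC CML mice, with no overlap.

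Of the 5 genes of MIF and its receptors, Cxcr2 rose by 1.30 and Ddt, a MIF homologue, by 0.30, and Mif (0.09) and Cd44 (0.02), which signals with Cd74, did not pass the test. Of 6 costimulation genes, Pdcd1lg2 (-1.26) and Cd86 (-0.92) fell, and none rose. Of 16 class I genes tested, 4 were higher in BC CML against CP CML (Pdia3 0.48, Calr 0.59, Tapbpl 0.33 and Psme2 0.22) and 1 was lower, Nlrc5 (-0.37, adjusted p = 0.01769), the class I counterpart of Ciita. Their median was 0.09, and B2m (0.06) and H2-K1 (0.04) did not pass the test.

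Markers of other cell types, of which only some are known to carry class II, were counted in this comparison too. They are read beside the 17.6% of all tested genes called lower and 20.4% called higher. Of 12 tested B cell markers, 5 were lower in BC CML and none was higher, led by Fcrla (-3.79), Cd79a (-2.60), Bank1 (-1.05) and Fcer2a (-1.93), and their summed level was 41.1 to 59.1 CPM in CP CML mice and 31.5 to 40.6 CPM in BC CML mice. Ms4a1 was at 0 counts in 3 of the 6 BC CML libraries. Of 8 plasma cell markers, 7 were lower, led by Pou2af1 (-5.53), Mzb1 (-4.82) and Jchain (-6.04), and 1, Fkbp11 (1.104), was higher. The sum of this list was 172 to 814 CPM in CP CML mice and 30.1 to 46.6 CPM in BC CML mice.

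Of 10 conventional dendritic cell markers 2 were lower (Fscn1 -1.26 and Ccr7 -1.43) and 1 was higher (Cst3 0.67), with sums of 151 to 174 CPM in CP CML mice and 199 to 233 CPM in BC CML mice. By means, Cst3 alone made up most of this sum in every group, with 114 of 162 CPM in CP CML and 174 of 219 CPM in BC CML. The median log2 fold change of the 10 markers was -0.79, with 4 of them positive. Clec9a and Xcr1, which define the cross-presenting subset, were at most 2.001 and 0.756 CPM in these groups and did not pass the test. Of 12 macrophage markers 4 were lower (Mrc1 -1.90, Axl -1.71, Spic -1.75 and Hmox1 -1.82) and none was higher, with sums of 125 to 672 CPM in CP CML mice and 92.5 to 292 CPM in BC CML mice. Of 10 monocyte markers 2 were higher (Lyz2 0.84 and Fcgr3 1.04) and 1 was lower (Cx3cr1 -0.98), with sums of 1048 to 1293 and 1525 to 1828 CPM. The counts called in the conventional dendritic cell and monocyte lists lay near or under the shares of all genes. The part of these cells in the class II values was not tested.

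**Figure D3:**
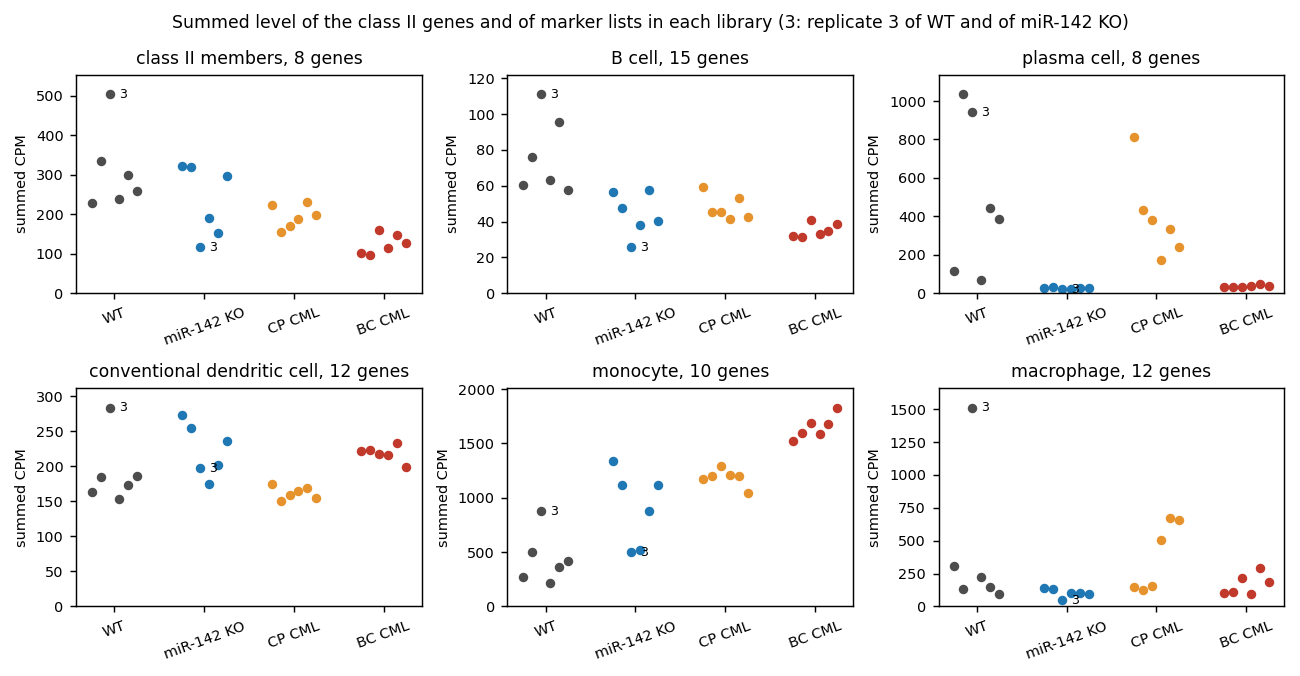
Summed CPM (y axis, from 0) of the 8 class II genes and of 5 marker lists in each library of each group (x axis), with replicate 3 of WT and of miR-142 KO numbered. WT 3 has the highest class II sum (503 CPM) and macrophage sum (1511 CPM) of all 24 libraries, and miR-142 KO 3 the lowest class II sum of its group (116 CPM).

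miR-142 KO was compared with WT to ask what the same loss does without BCR-ABL. None of the 8 genes passed the edgeR test, and none had an unadjusted p under 0.05, beside 16.4% of all tested genes called lower and 19.9% called higher. DESeq2, the likelihood ratio test and the other settings tried called none of the 8 either. The lowest adjusted p by edgeR was that of Cd74 (log2 fold change -0.81, SE 0.453, adjusted p = 0.1693). The median of the 8 log2 fold changes was -0.32, beside 0.01 over all genes tested. None was lower with no overlap of the groups, beside 8.73% of tested genes.

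The miR-142 KO mice differed widely among themselves. Replicates 1 to 6 had 89.5, 86.2, 6.63, 27.6, 16.3 and 74.6 CPM of Cd74, so that replicates 1, 2 and 6 lay within the WT range and replicates 3, 4 and 5 below it. The ratio of the highest to the lowest mouse of this group was 13.5 for Cd74, 14.8 for H2-Eb1, 9.88 for H2-Aa, 4.33 for Ciita and 3.07 for H2-Ab1, but 1.25 for H2-DMa. Without miR-142 KO 3 it was 5.51 for Cd74, 6.91 for H2-Eb1, 4.84 for H2-Aa, 2.5 for Ciita and 2.65 for H2-Ab1. For Cd74 the same ratio was 3.49 among WT mice, 1.73 among CP CML mice and 3.01 among BC CML mice. Both sexes were found among the higher and among the lower values.

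Genes of other cell types and of stress varied over the same mice, some in step with class II and some not. The genes and sums given here were chosen after their values were seen. Clec9a was at 12.3, 7.76, 0.17, 1.12, 1.58 and 7.56 CPM in replicates 1 to 6, and Itgax, the CD11c gene, at 27.5, 35.1, 7.097, 5.67, 5.68 and 24.5 CPM. Both were lower in replicates 3, 4 and 5, whereas Clec10a, another conventional dendritic cell marker, was at 12.8, 9.48, 23.6, 8.998, 18.1 and 7.65 CPM and highest in replicates 3 and 5. In replicates 1 to 6 the summed monocyte markers were at 1338, 1115, 501, 522, 878 and 1114 CPM, the plasmacytoid dendritic cell markers at 841, 794, 455, 603, 691 and 714 CPM, and the RNA quality and immediate early genes at 8462, 10102, 5506, 3247, 3771 and 6786 CPM, and each of these sums was lower in replicates 3, 4 and 5 than in the others. The summed conventional dendritic cell markers were at 273, 254, 197, 175, 202 and 237 CPM, also lower in replicates 3, 4 and 5. The summed macrophage markers were at 141, 129, 48.8, 105, 101 and 95.0 CPM. These were lowest in replicate 3, but replicate 6 lay below replicates 4 and 5. The part of these cells and genes in the spread was not tested.

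H2-Ob fell by 1.42 in miR-142 KO against WT (adjusted p = 9.851e-07, edgeR), while its partner H2-Oa was at -0.04. WT mice had 106 to 154 CPM of H2-Ob and miR-142 KO mice 28.3 to 55.8 CPM, with no overlap. H2-DMb2 fell by 0.63 (adjusted p = 0.0315) and H2-Eb2 (-0.60) did not pass the test. The lists that follow are read beside the 16.4% of all tested genes called lower and 19.9% called higher. Of the 13 transcription factor genes 4 were lower, Irf4 (-3.20), Prdm1 (-1.07), Nfya (-0.16) and Zbtb46 (-0.83), and Spi1 was higher (0.38). Of the processing genes Ctss (-1.04), Lgmn (-1.51) and March1 (-1.58) were lower, and Ctsz (0.82), Ctsl (0.41) and March8 (0.31) were higher. Of 12 macrophage markers 9 were lower and none was higher, of 12 tested B cell markers 4 were lower and none was higher, and of 8 plasma cell markers 7 were lower and 1 was higher. Other lists went the other way, with 5 of 10 monocyte markers higher and 1 lower (median 0.86), 5 of 8 T or NK cell markers higher and 2 lower (median 1.55), and 6 of 16 class I genes higher and 1 lower. Of 10 conventional dendritic cell markers 2 were higher and 3 lower, and of 9 plasmacytoid dendritic cell markers 2 were higher and 5 lower. The part of these cells in the class II values was not tested.

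The effects of miR-142 loss with and without BCR-ABL can be set against each other in one contrast (BC CML against CP CML minus miR-142 KO against WT). None of the 8 genes passed this test by edgeR, and none had an unadjusted p under 0.05, beside 3.99% of all genes tested that were called. For Cd74 the difference was -1.13 (SE 0.649, adjusted p = 0.3541), and for H2-Eb1 it was -0.95 (SE 0.6901, adjusted p = 0.4872). With WT 3 and miR-142 KO 3 both left out the difference for Cd74 was -1.72 (adjusted p = 0.04738), and it was the 1 gene of the 8 that then passed. These libraries had the highest Cd74 of WT (185 CPM) and the lowest of miR-142 KO (6.63 CPM). Leaving them out brings these groups closer for Cd74, which by itself makes the difference larger. The choice of libraries was made after seeing the data, so no conclusion is drawn from this pass.

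CP CML was compared with WT for the change that comes with BCR-ABL when miR-142 is intact. Of the 8 genes 6 were lower and none was higher, beside 22.9% of all tested genes called lower and 22.5% called higher. H2-DMa fell by 0.47 with the smallest error (SE 0.07796, adjusted p = 5.227e-05, edgeR). Ciita fell by 0.91 (SE 0.302, adjusted p = 0.01689), H2-Ab1 by 0.73 (SE 0.249, adjusted p = 0.02038) and H2-Aa by 1.19 (SE 0.444, adjusted p = 0.03236). H2-Eb1 fell by 1.22 (adjusted p = 0.04251) and H2-Oa by 0.33 (adjusted p = 0.04317). Cd74 (-0.56, SE 0.451, adjusted p = 0.3208) and H2-DMb1 (-0.07) did not pass the test.

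The median over the 8 genes was -0.64, beside -0.02 over all genes tested. H2-Aa, H2-DMa and H2-Oa were lower with no overlap, beside 12.8% of tested genes. With each of the 24 mice left out in turn, H2-Oa was called in 6 fits and H2-Eb1 in 15. H2-Aa was called in 20 of these fits, H2-Ab1 and Ciita in 23 and H2-DMa in all 24. The count moved with single mice. Without WT 3, the library rich in macrophage markers, 2 genes were called, H2-DMa (-0.41, adjusted p = 0.0002087) and Ciita (-0.78, adjusted p = 0.04525), and H2-Aa was at -0.91 (adjusted p = 0.09739, edgeR). It was also 2 without CP CML 2 and 3 without CP CML 3. With WT 3 and miR-142 KO 3 both left out it was 4 (H2-Aa, H2-Ab1, H2-DMa and Ciita), and in either sex alone it was 1, H2-DMa.

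Most of the factor genes that changed were lower in CP CML against WT. Of the 13 transcription factor genes 7 were lower and 1 was higher. Here and for the lists that follow, 22.9% of all tested genes were called lower and 22.5% higher. With the smallest p, Nfya fell by 0.41 (adjusted p = 6.406e-06), Ebf1, a B lineage factor, by 3.61, and Rfx5 by 0.35 (adjusted p = 0.0003273), while Spi1 rose by 0.46. Rfxap (-0.31), Rfxank (-0.32), Creb1 (-0.21) and Zbtb46 (-1.60) were the others that fell, named after their values were seen. Rfx5 had 90.5 to 110.01 CPM in WT mice and 70.6 to 84.5 CPM in CP CML mice, with no overlap.

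On the way from interferon gamma to Ciita, 4 of 7 genes were lower and 3 were higher. The receptor chains Ifngr2 (0.53) and Ifngr1 (0.55) and the feedback inhibitor Socs1 (1.01) rose. Jak1 (-0.14), Jak2 (-0.22) and Irf1 (-0.32) were among the genes that fell, named after their values were seen. Of 16 class I genes 5 were lower and 2 higher, with B2m (-0.42), H2-K1 (-0.34) and Tap2 (-0.41) lower and Calr (0.61) higher at the smallest p.

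The processing genes that changed were higher in CP CML against WT. Of 11, 4 were higher and none was lower, namely Ctsz (1.40), Ifi30, the thiol reductase of endosomes (1.45, adjusted p = 1.844e-05), Ctsl (0.54) and Ctsd (0.41). Mif rose by 0.53 (adjusted p = 0.001437), Cxcr2 by 0.72 and Cxcr4 by 0.41, 3 of the 5 genes of the MIF list. Of 6 costimulation genes 3 were higher, Cd274 (0.48), Pdcd1lg2 (0.88) and Icosl (0.43). H2-Ob fell by 0.90 (adjusted p = 0.0002037) and H2-Eb2 by 1.15 (adjusted p = 0.01556), and H2-DMb2 (-0.35) did not pass the test.

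Marker lists were counted here too, beside 22.9% of all tested genes called lower and 22.5% called higher. Of 10 conventional dendritic cell markers 4 were lower, Zbtb46 (-1.60), Ccr7 (-1.47), Xcr1 (-3.46) and Clec9a (-2.74), and Clec10a (1.24) was higher. Clec9a had 1.498 to 13.98 CPM in WT mice and 0.286 to 2.001 CPM in CP CML mice. Of 12 B cell markers 4 were lower (Ebf1, Blnk -1.61, Igll1 -1.99 and Bank1 -0.78) and none was higher, with sums of 57.8 to 111 CPM in WT mice. Of 10 monocyte markers 7 were higher, led by Ccr2 (2.83), F13a1 (2.29) and Cx3cr1 (1.71), and 1 was lower, Lyz2 (-0.43), with sums of 216 to 876 CPM in WT mice. Of 12 macrophage markers 1, Cd68 (0.56), passed the test, and within CP CML their sum was 508 to 672 CPM in the males and 125 to 157 CPM in the females. The part of these cells in the class II values was not tested.

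BC CML was compared with miR-142 KO for the change with BCR-ABL when miR-142 is absent. All of the 8 genes except H2-DMb1 were lower, 7 in number, beside 19.3% of all tested genes called lower and 20.3% called higher. H2-Eb1 fell by 2.17 (SE 0.5099, adjusted p = 0.002069, edgeR), H2-Aa by 1.91 (SE 0.464, adjusted p = 0.002667) and Cd74 by 1.70 (SE 0.475, adjusted p = 0.007254). Ciita fell by 1.42 (adjusted p = 0.001234), H2-Ab1 by 0.92, H2-Oa by 0.49 and H2-DMa by 0.32. The same 7 genes were called with each mouse left out in turn. Among males alone 5 were called and among females alone 1, H2-Oa.

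None of the 8 genes was lower with no overlap, beside 5.65% of tested genes. miR-142 KO 3 lay within or below the BC CML range for all of the 8 genes except H2-Oa. miR-142 KO 5 also lay within that range for Cd74 (16.3 CPM), H2-Aa (8.67), H2-Ab1 (14.6), H2-Eb1 (4.56), H2-DMb1 (11.5) and H2-Oa (8.38 CPM). Without miR-142 KO 3 the fall of Cd74 was 1.93 and that of H2-Eb1 2.41 on the log2 scale, and with WT 3 left out as well all 8 genes were called. H2-Ob fell by 0.68 (adjusted p = 0.003677) and H2-Eb2 by 1.72 (adjusted p = 0.002796). Of the transcription factor genes 4 were lower (Zbtb46 -1.57, Ebf1 -2.31, Nfya -0.22 and Rfx5 -0.20), and Spi1 (0.30) and Prdm1 (0.87) were higher. Of the 11 processing genes 4 were higher, Ctsd (1.06), Ctsz (1.01), Ctsl (0.69) and Ifi30 (1.07), and none was lower. Both lists are read beside the 19.3% of all tested genes called lower and 20.3% called higher.

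Marker lists were counted in BC CML against miR-142 KO beside 19.3% of all tested genes called lower and 20.3% called higher. Of 10 conventional dendritic cell markers 5 were lower, with Clec9a (-3.68), Zbtb46 (-1.57), Xcr1 (-4.64) and Itgax (-1.70) at the smallest p. Clec9a had 0 to 0.693 CPM in BC CML mice, and Xcr1 was at 0 counts in 3 of the 6 BC CML libraries. The macrophage list had 2 markers higher (Adgre1 2.31 and Cd5l 3.02) and none lower. Of 9 plasmacytoid dendritic cell markers 5 were lower and none was higher, of 8 T or NK cell markers 5 were lower and none was higher (median -1.60), and of 12 B cell markers 3 were lower and 1 was higher. Of 8 plasma cell markers 2 were higher and none was lower. Of 10 monocyte markers 3 were higher and none was lower, and of 10 RNA quality and immediate early genes 3 were higher and none was lower. The part of these cells in the class II values was not tested.

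BC CML and WT mice differ in both BCR-ABL and miR-142. All but H2-DMb1 were lower, beside 32.1% of all tested genes called lower. Cd74 fell by 2.50 (SE 0.484, adjusted p = 9.533e-05, edgeR), H2-Eb1 by 2.48 (SE 0.513, adjusted p = 0.0002022), H2-Aa by 2.37 (SE 0.468, adjusted p = 0.0001247) and Ciita by 1.75 (SE 0.314, adjusted p = 4.068e-05). H2-Ab1 fell by 1.33, H2-Oa by 0.53 and H2-DMa by 0.35. Of the 8 genes, 6 were lower with no overlap (not H2-DMa and H2-DMb1), beside 25.2% of tested genes. The count called was 7 with each mouse left out in turn, among females alone and among males alone.

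Markers of other cells were counted in BC CML against WT as well, beside 32.1% of all tested genes called lower and 32.9% called higher. Of 12 B cell markers 9 were lower and none was higher, of 8 plasma cell markers 6 were lower and 1 was higher, of 10 conventional dendritic cell markers 7 were lower and 2 higher, and of 9 plasmacytoid dendritic cell markers 5 were lower and none was higher. Of 12 macrophage markers 4 were lower and 2 higher, and of 10 monocyte markers 7 were higher and 1 was lower. Of 8 T or NK cell markers 3 were lower and 2 higher, and of 10 RNA quality and immediate early genes 3 were higher and none was lower. The part of these cells in the class II values was not tested.

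CP CML against miR-142 KO, which also differ in both, gave 1 gene, H2-DMa (-0.44, SE 0.07797, adjusted p = 0.0001128, edgeR), beside 19.4% of tested genes called lower. It was also the 1 gene lower with no overlap, beside 7.24% of tested genes. Without miR-142 KO 3 it was 3 genes and without miR-142 KO 5 it was 2. Cd74 was at 0.25 (adjusted p = 0.6995).

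Between females and males none of the 8 genes passed the test by edgeR, and none had an unadjusted p under 0.05, beside 0.651% of all genes tested that were called. The log2 fold change of Cd74 (females against males) was 0.29. This test used 1 sex term shared by the 4 groups. Within CP CML, Ciita was at 1.92 to 2.89 CPM in the females and 3.28 to 5.16 CPM in the males. H2-DMb1 was also higher in the CP CML males with no overlap (at least 12.68 CPM, against at most 12.48 CPM in the females). H2-DMa was barely apart, with 62.34 CPM in the highest female and 62.38 CPM in the lowest male. The sexes overlapped there for the other class II genes. These sex differences were seen after the fact, and sex within a group was not tested in one contrast. The share of all genes apart in this way was not counted.

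Once group means were taken off, Cd74, H2-Aa, H2-Ab1, H2-Eb1 and Ciita were linked most tightly over the 24 libraries, but not within every group. Without that step they did not stand apart, with r of 0.886 between H2-Oa and Ciita and 0.871 between Cd74 and Ciita. After the group means were taken off, Pearson's r of log2 CPM over the 24 libraries was 0.966 between Cd74 and H2-Eb1, 0.965 between H2-Aa and H2-Eb1, 0.935 between H2-Eb1 and Ciita and 0.932 between H2-Aa and Ciita. The lowest r among Cd74, H2-Aa, H2-Ab1, H2-Eb1 and Ciita was 0.856, between H2-Ab1 and Ciita. H2-DMb1 had r from 0.767 to 0.846 with these 5, H2-DMa from 0.603 to 0.709 and H2-Oa from 0.604 to 0.722. H2-DMb1, H2-DMa and H2-Oa had r of only 0.459 to 0.571 with one another, so they formed no set of their own. Within the miR-142 KO group alone, r among the 5 ran from 0.977 (H2-Ab1 and Ciita) to 0.998 (Cd74 and Ciita). Within CP CML it was 0.559 for H2-Ab1 and Ciita and 0.598 for Cd74 and Ciita, below the 0.869 of H2-DMb1 and H2-Oa. Within WT it was 0.657 for Cd74 and Ciita, below the 0.838 of H2-DMb1 and H2-Oa. These are descriptions over libraries that share depth and composition.

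**Figure D4:**
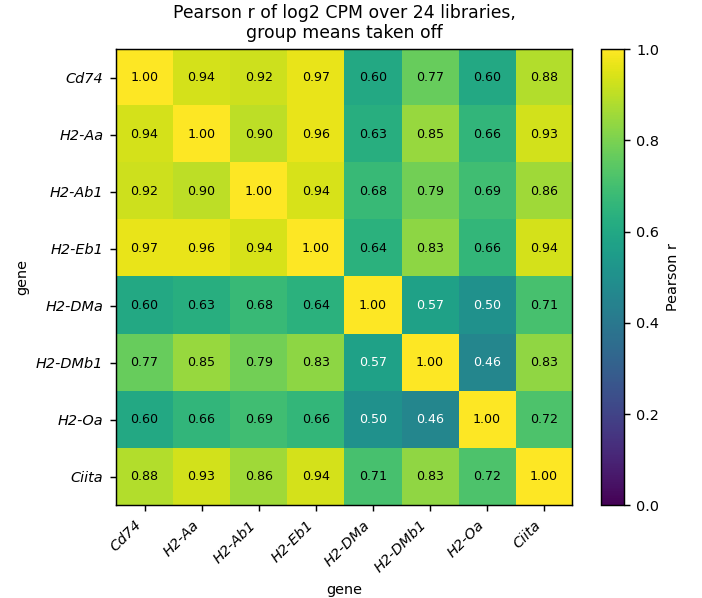
Pearson's r between the class II genes (both axes) over the 24 libraries, from log2 CPM with a prior count of 2 and with the mean of each group taken off. Cd74, H2-Aa, H2-Ab1, H2-Eb1 and Ciita form a block at 0.856 or more, and the lowest value, 0.459, is between H2-DMb1 and H2-Oa. Values within single groups are not drawn and do not always show this block (H2-Ab1 and Ciita 0.559, H2-DMb1 and H2-Oa 0.869 in CP CML).

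The genes most like the mean standardised level of the 8 over the 24 libraries, among 11698 others with a mean of at least 1 CPM, were Mycl (r = 0.956), Slc9a9 (0.945), Ppfia4 (0.939), Clec9a (0.923), Camkv (0.912), Nxpe4 (0.909), Hdac9 (0.909), Otud1 (0.907), Sec31b (0.904) and Klhl6 (0.904). With the group means taken off, Mycl was again first (0.915), followed by Ptpro (0.905), Ctsh, a cathepsin (0.904), Rasa4 (0.887), Slc9a9 (0.886), Ppfia4 (0.884), Mgll (0.883), Clec9a (0.882), Plbd1 (0.879) and Nxpe4 (0.878). Mycl, which encodes L-Myc, averaged 4.86 CPM over WT mice, 1.68 over miR-142 KO mice, 1.05 over CP CML mice and 0.181 over BC CML mice, and Clec9a 5.44, 5.08, 0.791 and 0.381 CPM. Slc9a9 spanned a narrower range, from 41.7 CPM over WT mice to 20.9 CPM over BC CML mice.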

How the data were processed

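The authors sequenced mRNA libraries of sorted LSKs (Kapa mRNA HyperPrep, paired reads). Per the labels and the study's methods, adapters and polyA tails were trimmed with Trimmomatic and FASTP, reads were aligned to mm10 with STAR 2.6.0, and reads per gene were counted with HTSeq 0.11.1. The annotation and the strand setting are not given in the sources used here. The deposited values are raw counts per gene, not normalized, with 1 column for each of 24 libraries, beside gene lengths in kb. Library totals were 16267965 to 24687077 counts. Ciita had the fewest reads of the class II genes, though its SE was below those of Cd74, H2-Aa and H2-Eb1 in every pairwise comparison.

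Groups came from the genotype labels. Counts were tested with edgeR 4.0.16 in R 4.3.3 (filterByExpr by group, TMM factors, 1 quasi-likelihood fit over all 24 libraries, 7 contrasts, and a fit with a sex term for females against males), with Benjamini-Hochberg adjustment over 13520 genes and a threshold of 0.05. The scripts were tested on simulated data. Samples are separate mice, and every pair of replicates differed by more than the sampling noise of their counts (chi-square per degree of freedom of 5.82 to 63.5). CPM used library totals, and log2 CPM a prior count of 2. Promoters and microRNAs came from RefSeq (GRCm38.p6) and 3' UTRs from GENCODE M21 (GRCm38).

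Named genes were the 8 members, every other class II gene in the table, up to 4 genes of each list per comparison by smallest p among those called, and the 10 most alike by correlation (and 10 with the group means taken off), other genes being named after their values were seen. The members and lists were chosen with earlier results of these data known. The lists were other class II genes, class II transcription factors, the interferon gamma to Ciita axis, invariant chain and antigen processing, MIF and CD74 partners, costimulation, class I presentation, LSK gate, RNA quality and immediate early genes, and markers of B, plasma, conventional and plasmacytoid dendritic cells, monocytes, macrophages and T or NK cells. Alternatives were the likelihood ratio test, DESeq2 1.42.0, other scalings and filters, sex as a covariate, a log2 limit of 1, fits of the compared groups alone and each mouse left out. Leaving out WT 3 with miR-142 KO 3, and fitting each sex alone, were chosen after seeing the data. Some members of the marker and pathway lists are counted but not reported here by name.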

Additional observations from a re-analysis of the deposited data

Results flagged for a closer look

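Among 32 pairs of a class II gene and a group of 6 mice, 3 had a mouse that stood apart from the others by Dixon's test, and chance gives about 1 in 20. H2-Aa was at 66.5 CPM in WT 3, where the other 5 WT mice had 25.6 to 36.4 CPM. H2-Eb1 was at 48.8 CPM in the same library, where the others had 13.3 to 23.9 CPM. H2-DMa was at 69.8 CPM in miR-142 KO 3, where the other 5 miR-142 KO mice had 83.2 to 87.5 CPM. WT 3 also had the highest WT sums of macrophage (1511 CPM), monocyte (876 CPM), conventional dendritic cell (284 CPM) and B cell markers (111 CPM). In miR-142 KO 3, Xcr1, Siglech and Ms4a1 had 0 counts, and Cd74 (6.63 CPM) was lower than in any other library. The part of other cells in these values was not tested.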

How the results depend on the processing

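Of BC CML against CP CML, 5 class II genes were called (3 in the reported test) by the likelihood ratio test, by DESeq2, with library totals only, with only the compared groups and without WT 3 and miR-142 KO 3, and 0 among females alone. Leaving out 1 mouse gave 1 to 5, with 1 (Cd74) without CP CML 4, 5 or 6 or BC CML 1, 2, 4 or 6. The fits with 1 mouse left out called 4404 to 5608 of all genes. Counts under the other settings here and below, and in the comparisons above, are not set beside the share of all genes called there. A change in such a count is therefore not read as a result about the class II genes. Of CP CML against WT, 2 genes passed a log2 limit of 1, 1 passed among females and 1 among males, and 1 mouse left out gave 2 to 6. The latter fits called 5348 to 6542 of all genes. Of BC CML against miR-142 KO, 4 passed the log2 limit and 1 passed among females. Of CP CML against miR-142 KO, 0 passed the log2 limit, 0 passed among females, 4 passed without WT 3 and miR-142 KO 3, and 1 mouse left out gave 1 to 3. The latter fits called 4439 to 5905 of all genes. Of the difference of the miR-142 effects, 1 passed without WT 3 and miR-142 KO 3. No called value changed sign. The cause was not tested.

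Signs of values not called turned for miR-142 KO against WT without WT 3 and miR-142 KO 3 (H2-Aa 0.02991, H2-Eb1 0.2833, H2-DMa 0.06684, H2-DMb1 0.1004, H2-Oa 0.01534), among males (H2-DMa 0.0355) and among females (H2-Oa 0.2149). They also turned for CP CML against WT among males (Cd74 0.005505), for CP CML against miR-142 KO among females (Cd74 -0.05005) and males (H2-Oa 0.02451), and for the difference among males (H2-Oa 0.1579). With 1 mouse left out, miR-142 KO against WT gave -0.5313 to 0.04955 for H2-Eb1, -0.07674 to 0.02925 for H2-DMa, -0.09396 to 0.05038 for H2-DMb1 and -0.1652 to 0.05114 for H2-Oa. CP CML against miR-142 KO gave -0.1057 to 0.023 and the difference -0.1562 to 0.004326 for H2-DMb1, and females against males -0.1459 to 0.1331 for H2-Aa and -0.04091 to 0.0529 for H2-Oa.

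With library totals only, the median of all genes in BC CML against WT moved from -0.01 to -0.13, so changes there are relative to that shift. The share of calls that were higher was 53.7% as reported, 42.4% by upper quartile scaling and 37.9% with library totals for BC CML against CP CML, and likewise 54.7%, 42.0% and 37.5% for miR-142 KO against WT and 50.6%, 40.2% and 36.2% for BC CML against WT. With library totals it went from 49.6% to 38.7% for CP CML against WT and from 51.3% to 39.6% for BC CML against miR-142 KO. No paired analysis was possible because replicate numbers do not mark shared animals.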

Other observations

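The lists not yet described are given as values with no explanation, to be read beside the shares of all tested genes given above. Of 9 LSK gate genes, 5 were lower and 1 was higher in BC CML against CP CML, with Flt3 (-1.23), Hlf (-1.03), Ly6a (1.09) and Kit (-0.46) at the smallest p, and Flt3 was also lower in miR-142 KO against WT (-1.24). Of 10 RNA quality and immediate early genes, 2 were higher (Neat1 0.61 and Hspa1b 1.28) and 2 were lower (Egr1 -1.16 and Ier2 -0.63) in BC CML against CP CML, and 0 passed in either direction in miR-142 KO against WT. Of the same 10, 4 were higher and none lower in CP CML against WT (median 0.85), and 3 were higher and none lower both in BC CML against miR-142 KO and in BC CML against WT. In BC CML against CP CML, of 8 tested T or NK cell markers 2 were lower (Lck -1.05 and Cd4 -1.09) and 1 was higher (Nkg7 0.56). In that comparison, of 9 tested plasmacytoid dendritic cell markers 4 were lower and 2 were higher, with Cox6a2 (-2.32), Runx2 (-0.55), Ly6d (-2.44) and Ccr9 (2.04) at the smallest p.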
